A study of Homo sapiens with 12 samples.

Results

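The genes described here encode the m6A writers, the enzymes and partner proteins that place N6-methyladenosine on RNA. They were taken as a list of 9 gene symbols (METTL3, METTL14, WTAP, VIRMA, ZC3H13, CBLL1, RBM15, RBM15B and METTL16), each matched to 1 Ensembl identifier. All 9 were found among the 58302 gene identifiers of the count table, and all 9 passed the filter on low counts. Their mRNA levels were examined in 4 RNA-seq libraries, and the m6A peaks on their transcripts in 4 peak lists.

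m6A is deposited on nascent mRNA by a large nuclear complex. METTL3 carries the catalytic site, and METTL14 forms a heterodimer with it and helps to hold the RNA substrate. WTAP anchors this heterodimer in nuclear speckles, VIRMA serves as a scaffold, ZC3H13 keeps the complex in the nucleus, CBLL1 (also called HAKAI) is a RING-type partner, and the paralogues RBM15 and RBM15B bind RNA and guide the complex to its sites. METTL16 acts outside the complex and methylates U6 small nuclear RNA and the MAT2A transcript.

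The cells were the human oral squamous cell carcinoma (OSCC) lines HSC3 and CAL33, given rapamycin, an inhibitor of mTOR complex 1 that induces autophagy, or left as control. For methylated RNA immunoprecipitation sequencing (MeRIP-seq), each line was sampled with and without 100 nM rapamycin for 3 days, and each of these 4 conditions had 1 m6A immunoprecipitate, 1 input and 1 peak list. In MeRIP-seq the libraries numbered 1 are labelled HSC3 and those numbered 2 CAL33. The RNA-seq libraries comprised control 1 and 2 and rapamycin 1 and 2, treated at the same dose for a time not given in the sources used here. No source says that any of the 4 came from separate cultures. The p-values therefore measure only the spread left in a fit to these libraries, which may be in part technical.

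The labels of the RNA-seq libraries go against the numbering of MeRIP-seq, since both rapamycin libraries are labelled HSC3 and both control libraries CAL33. Read as labelled, treatment and cell line cannot be told apart in RNA-seq. The libraries themselves grouped by number. Across 15826 tested genes, log2 levels correlated at r = 0.966 between control 1 and rapamycin 1 and at 0.956 between control 2 and rapamycin 2, whereas the other 4 pairings gave 0.761 to 0.811. Each RNA-seq difference was fitted with the library number as a block, a pairing fixed together with the gene list. The fit without the block is given for the list as a whole. With the block, the p-values for rapamycin rest on how far such differences disagreed between the 2 numbered pairs. Without it, they rest on the difference between the 2 libraries of each treatment, which includes the difference between numbers. In both fits the spread of a gene was estimated in part from all tested genes, not from its own libraries alone. With the block, VIRMA had a standard error (SE) of 0.25 with pairs at −0.53 and −0.48 on the log2 scale. The eraser gene ALKBH5 had an SE of 0.26 with pairs at −1.23 and −0.65.

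Library totals were 21653290 and 23763098 counts in control libraries 1 and 2 and 18492273 and 18763045 in rapamycin libraries 1 and 2. The 10 most abundant genes took 7.22% and 8.23% of control counts and 10.2% and 10.3% of rapamycin counts. Mitochondrial genes took 5.71% and 7.3% of control counts and 6.62% and 7.94% of rapamycin counts, and the part of these differences in the results below was not tested. The summed level of 8 squamous markers was 5288 to 8410 CPM (counts scaled to the library total) in control and 3705 to 15530 CPM in rapamycin libraries, but in the libraries numbered 1 the sum was mostly EGFR (7601 CPM in control, 14870 CPM in rapamycin) and KRT14 was at 0 counts. KRT5 stood at 34.2 and 6.1 CPM in the libraries numbered 1 (control, rapamycin) against 1703 and 326.7 CPM in those numbered 2. KRT17 stood at 4.9 and 5.05 CPM against 1346 and 2119 CPM, and TP63 at 19.7 and 13.5 CPM against 332.5 and 353.1 CPM. CDH1 went the other way, at 333.5 and 304.4 CPM in the libraries numbered 1 against 180.1 and 221.2 CPM. SFN was high in all 4 libraries, at 413.3 and 332 CPM against 672.8 and 238.2 CPM. With the block, 3 of the 8 passed as lower with rapamycin (adjusted p under 0.05, edgeR), against 3.5% of all tested genes. Their log2 fold changes were −2.43 for KRT5, −2.85 for KRT14 and −5.46 for KRT6A. KRT14 rests on the libraries numbered 2 alone (221 counts in control, 23 with rapamycin). Without the block none of these 3 genes passed (adjusted p = 0.9997 each, edgeR). The part of the markers in the differences below was not tested. The 5 fibroblast markers summed to 8.79 to 25.5 CPM in control and 28.5 to 31.9 CPM in rapamycin libraries, with COL1A2, COL3A1 and DCN at 0. The leukocyte marker PTPRC was at 0 counts in all 4 libraries. The 3 endothelial markers reached 45.4 CPM, and in each treatment were higher in the library numbered 2.

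None of the 9 writer mRNAs passed the threshold for a difference between rapamycin and control (adjusted p under 0.05, edgeR quasi-likelihood test). With the block, 8.15% of all tested genes passed and 3.5% passed as lower, so that 0 of 9 stands close to what the background share would give. Without the block 0.0% passed (446 genes had an unadjusted p under 0.05), the adjusted p of each of the 9 members was 0.9997, and their log2 fold changes ran from −0.51 (ZC3H13) to −0.02 (METTL14). No member had an unadjusted p under 0.05 in either fit, and DESeq2 with the block also called 0 of 9. All 9 fold changes were nonetheless below 0, with a median of −0.29 on the log2 scale against 0.05 over all tested genes, of which 47% were below 0. The 13 m6A reader genes described below leaned the same way, with 11 (84.6%) below 0 and a median of −0.26. Below 0 were also 1 of 2 erasers, 2 of 4 other RNA methyltransferase genes and 1 of 3 S-adenosylmethionine cycle genes.

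**Figure D1:**
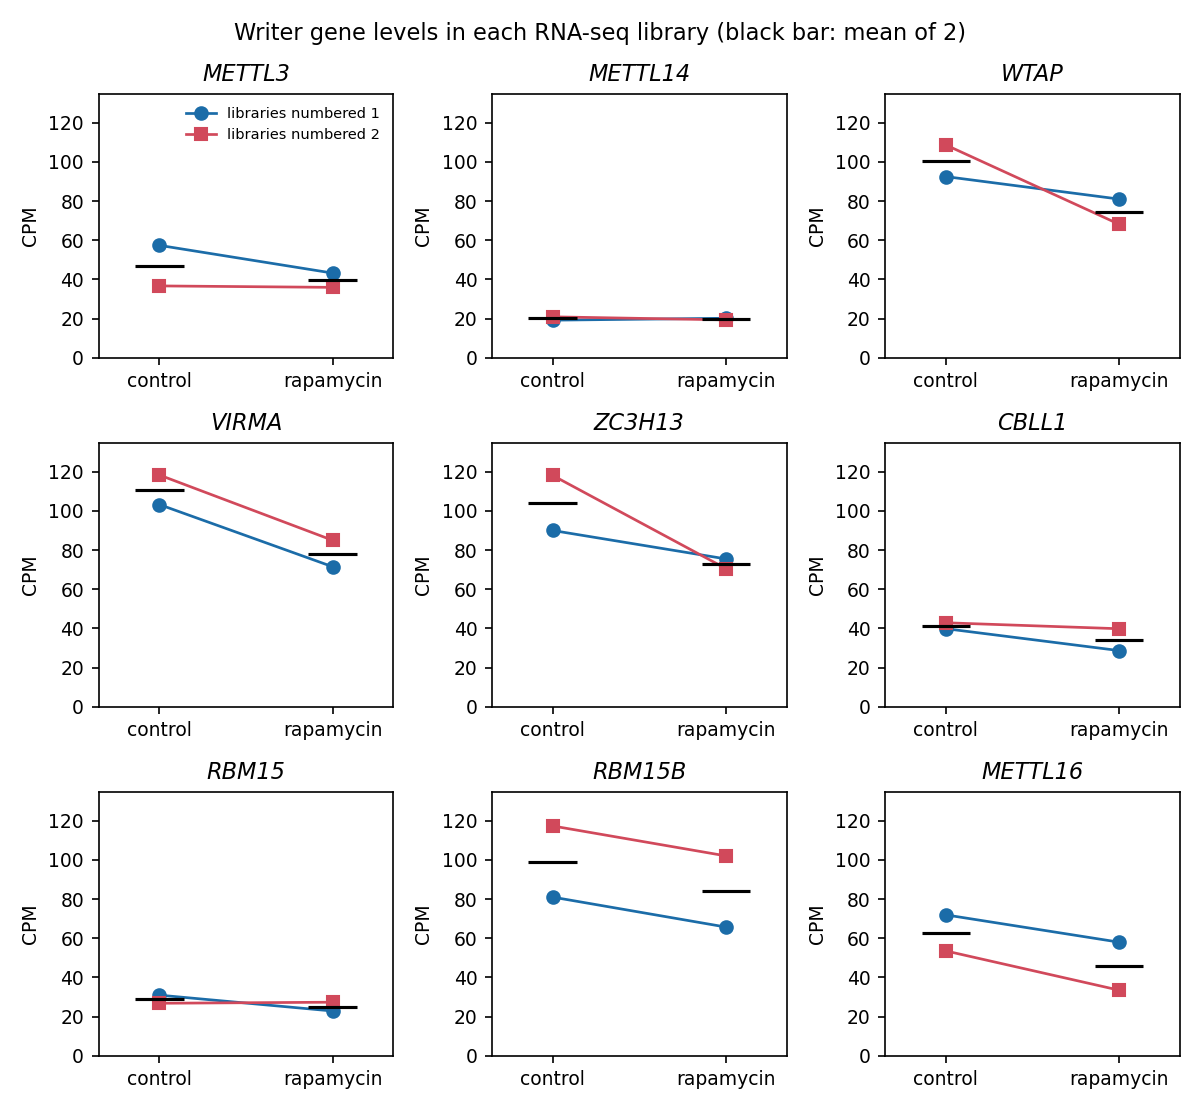
Level of each writer gene in CPM (y axis, from 0) in control and rapamycin RNA-seq libraries, with lines joining libraries of the same number and black bars at the mean of 2 libraries. METTL14 lies between 19.2 and 20.9 CPM in all 4 libraries, while VIRMA, WTAP, ZC3H13 and CBLL1 have both rapamycin libraries below both control libraries.

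METTL14, the subject of the study, was the steadiest of the 9. It stood at 19.2 and 20.9 CPM in control libraries 1 and 2 and at 20.1 and 19.3 CPM in rapamycin libraries 1 and 2, from 352 to 494 counts per library. The 2 groups overlapped, and the means were 20 ± 1.2 and 19.7 ± 0.59 CPM (SD, n = 2 each). The log2 fold change was −0.02 (SE 0.33, 95% interval −0.69 to 0.65, adjusted p = 0.976, edgeR), or from −38.1% to 57.1% in percent. Its sign turned with the scaling, at 0.05 under upper-quartile normalization. The range of METTL14 over the 4 libraries, 0.122 on the log2 scale, was smaller than that of all but 0.133% of tested genes. At these counts, how much of so small a range is counting error was not tested, so the rank does not show tight control. By profile over these 4 libraries the genes most like it, among 12172 compared, were GGA3 (a Golgi trafficking adaptor), ELOVL1 (a fatty acid elongase) and RALA (a small GTPase), each within a root mean square difference of 0.015 on the log2 scale. With 4 values of a nearly flat profile and this many genes compared, such a match says nothing of a shared function.

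METTL3, the catalytic partner, varied more. It stood at 57.4 and 36.7 CPM in control libraries 1 and 2 and at 43.2 and 35.9 CPM in rapamycin libraries 1 and 2. Control 1 was the highest, and both libraries numbered 1 were above both of those numbered 2. Control 2 lay below rapamycin 1, so that the groups overlapped. The log2 fold change was −0.22 (SE 0.28, 95% interval −0.80 to 0.36, adjusted p = 0.685, edgeR). RefSeq places METTL3 over part of the neighbouring gene TOX4, and whether counting used strand is not given in the sources used here.

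Because METTL3 and METTL14 act as a pair, their counts were also set against each other within each library. METTL3 had 3 counts for each METTL14 count in control 1 (95% exact interval 2.68 to 3.36) and 1.76 in control 2 (1.57 to 1.97). The ratio was 2.15 in rapamycin 1 (1.9 to 2.43) and 1.86 in rapamycin 2 (1.63 to 2.12). The intervals cover counting error only. Control 1 had the highest ratio and control 2 the lowest, so the control libraries bracketed both rapamycin libraries. The ratio is of counts, not per length, and does not compare molecules of the pair.

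The scaffold VIRMA, with ZC3H13 and METTL16, had a fitted difference close to −0.50 on the log2 scale. It stood at 103.3 and 118.4 CPM in control libraries 1 and 2 and at 71.5 and 85 CPM in rapamycin libraries 1 and 2. Both rapamycin libraries were below both controls, and the numbered pairs differed alike, by −0.53 and −0.48 on the log2 scale. The fitted log2 fold change was −0.50 (SE 0.25, 95% interval −1.02 to 0.02, adjusted p = 0.228, edgeR), and over the alternatives with the block kept the adjusted p ranged from 0.237 to 0.311.

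ZC3H13 and WTAP had larger differences in the libraries numbered 2. ZC3H13 stood at 90.05 and 118.2 CPM in control libraries 1 and 2 and at 75.5 and 70.6 CPM in rapamycin libraries 1 and 2, a log2 fold change of −0.50 (SE 0.26, adjusted p = 0.246, edgeR). WTAP stood at 92.5 and 108.7 CPM in control and at 81 and 68.2 CPM in rapamycin libraries, a log2 fold change of −0.43 (SE 0.26, adjusted p = 0.322, edgeR). In both genes control 2 was the highest library and rapamycin 2 the lowest, and the groups did not overlap. RefSeq lists SOD2 as overlapping WTAP.

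CBLL1 was the reverse, with its larger difference in the libraries numbered 1. It stood at 39.9 and 42.9 CPM in control libraries 1 and 2 and at 28.7 and 39.8 CPM in rapamycin libraries 1 and 2. Rapamycin 2 lay only just under control 1, so the groups were separate by a small margin. The log2 fold change was −0.29 (SE 0.29, adjusted p = 0.583, edgeR). The antisense gene CBLL1-AS1 overlaps it.

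The RNA-binding paralogues RBM15 and RBM15B both overlapped between groups. RBM15 stood at 30.9 and 26.8 CPM in control libraries 1 and 2 and at 22.8 and 27.3 CPM in rapamycin libraries 1 and 2 (log2 fold change −0.20, SE 0.31, adjusted p = 0.738, edgeR). The lowest and the highest RBM15 values were rapamycin 1 and control 1, and the pair numbered 2 was nearly level. RBM15B stood at 81 and 117.4 CPM in control and at 65.7 and 102.1 CPM in rapamycin libraries (log2 fold change −0.25, SE 0.25, adjusted p = 0.587, edgeR). Each RBM15B library numbered 2 was above both of those numbered 1. RefSeq lists DCAF1 as overlapping RBM15B.

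METTL16, the enzyme outside the complex, stood at 71.95 and 53.5 CPM in control libraries 1 and 2 and at 58 and 33.5 CPM in rapamycin libraries 1 and 2. Rapamycin 2 was far below the other 3 libraries, and control 2 lay below rapamycin 1, so the groups overlapped. The log2 fold change was −0.49 (SE 0.27, 95% interval −1.06 to 0.07, adjusted p = 0.281, edgeR).

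**Figure D2:**
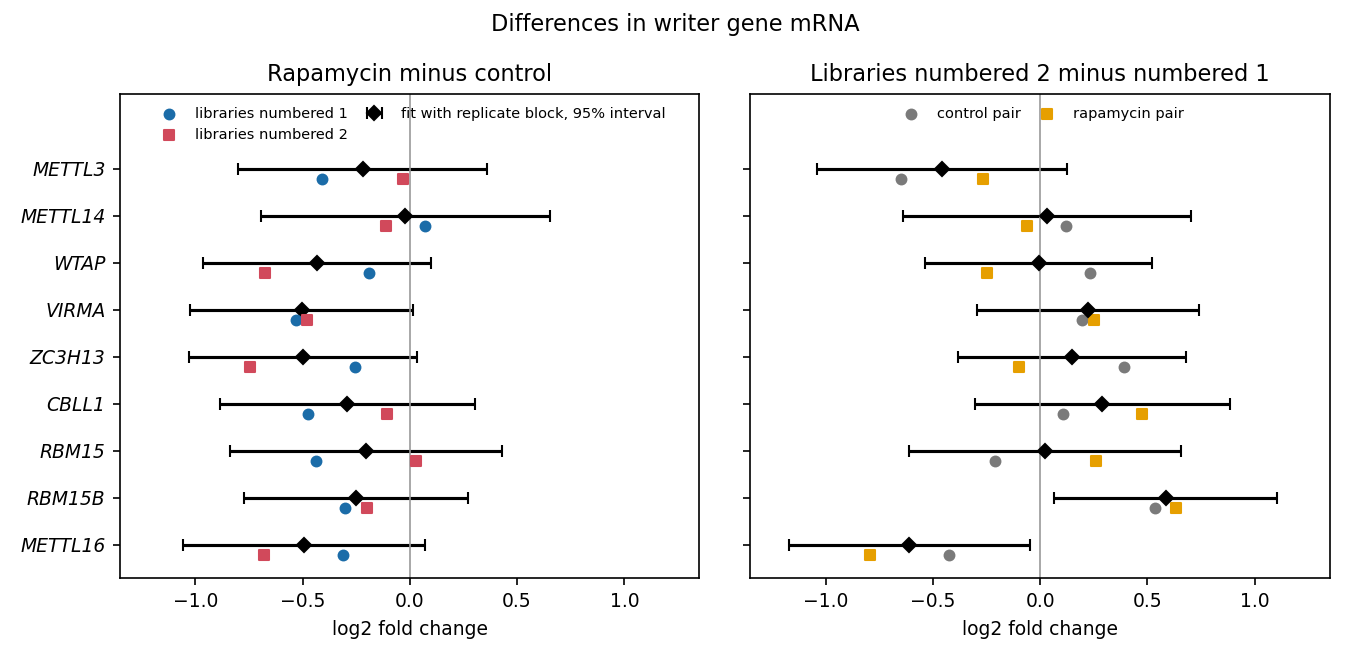
Log2 fold changes of the 9 genes (x axes) for rapamycin minus control (left) and for libraries numbered 2 minus numbered 1 (right). Black diamonds and bars are the edgeR estimate with the block and its 95% interval, and coloured points are the single library pairs. In the left panel all 9 intervals reach across 0, and in the right panel those of RBM15B and METTL16 do not.

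Counted over the list, 4 of the 9 (WTAP, VIRMA, ZC3H13 and CBLL1) had both rapamycin libraries below both controls, against 16.5% of all tested genes. Within the numbered pairs, 7 of the 9 were lower with rapamycin in both pairs, against 31.8% of all tested genes. The exceptions were METTL14 and RBM15. These genes were chosen as a functional group with earlier results known, and the 9 are not independent of each other. In bulk RNA, a lower level in every cell and a lower level in some of the cells cannot be told apart.

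The libraries numbered 1 and 2 also set the writer genes little apart. For the number term of the same fit 37.3% of all tested genes passed the threshold, and 0 of the 9 members did (DESeq2 also called 0 of 9). The median size of the difference between numbers was 0.22 on the log2 scale for the members and 0.67 for all tested genes. RBM15B was 0.58 higher in the libraries numbered 2 (SE 0.25, adjusted p = 0.0723, edgeR) and METTL16 0.61 lower (difference −0.61, SE 0.27, adjusted p = 0.0844, edgeR). Both had an unadjusted p under 0.05, and in both genes control and rapamycin pairs differed in the same direction.

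Genes that act around the writers were counted in the fit with the block, to be read against the 8.15% of all tested genes that passed and the 3.5% that passed as lower. Of the 2 erasers, which remove m6A, 1 passed as lower. This was ALKBH5, at 138.1 and 118.8 CPM in control libraries 1 and 2 and at 58.8 and 75.8 CPM in rapamycin libraries 1 and 2 (log2 fold change −0.94, SE 0.26, adjusted p = 0.0266, edgeR). Of 13 readers, which bind m6A or RNA opened by it, 1 passed as higher and 1 as lower. IGF2BP2, which stabilises bound mRNA, stood at 139.6 and 120.5 CPM in control and at 235.4 and 245.5 CPM in rapamycin libraries (log2 fold change 0.89, SE 0.25, adjusted p = 0.0316, edgeR). RBMX, a nuclear RNA-binding protein, stood at 414 and 470.5 CPM in control and at 147.3 and 156.9 CPM in rapamycin libraries (log2 fold change −1.54, SE 0.25, adjusted p = 0.00112, edgeR). For these 3 genes the groups did not overlap, and none passed without the block (adjusted p = 0.9997 each). None of 4 other RNA methyltransferase genes and none of 3 genes of the S-adenosylmethionine cycle passed in edgeR, and none of these had an unadjusted p under 0.05.

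In MeRIP-seq, where a peak is a stretch of RNA enriched in the m6A immunoprecipitate over input, 8 of the 9 writer transcripts carried a peak in at least 1 list. In all, 39 peaks lay on them. No condition has a replicate, so the peak values are given without a test, and the depth of these libraries is not known. In HSC3, 8 members had a peak in control and 6 with rapamycin, against 17.6% and 17.5% of all tested genes. In CAL33, 5 members had a peak in control and 5 with rapamycin, against 16.1% and 14.2%. Among the 7409 tested genes with a mean CPM (not per length) at least that of METTL14, the member with the fewest counts, these shares were 26.4%, 26.0%, 25.7% and 21.8%. WTAP, VIRMA, ZC3H13, RBM15 and RBM15B had a peak in all 4 lists, as did 3.61% of all tested genes and 6.92% of those with at least the CPM of METTL14. With peaks at a false discovery rate of at most 0.05, the HSC3 counts were 7 in control and 6 with rapamycin. With a fold enrichment over input of at least 4 they were 8 and 5. The CAL33 counts stayed at 5 under both settings, and the shares of all genes at these settings are not given here.

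Peaks of the writer genes were spread over the range of their lists. Fold enrichment is the authors' ratio of immunoprecipitate to input, with list medians from 33.3 to 42.6. The members' peaks ran from 1.91 (ZC3H13, HSC3 control) to 528 (WTAP, CAL33 control). Their median percentile within the list was 46.9 in HSC3 control, 54.4 in HSC3 rapamycin, 62.8 in CAL33 control and 47.0 in CAL33 rapamycin. Coordinates below are on hg38, and the sequence under the peaks was not analysed here.

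**Figure D3:**
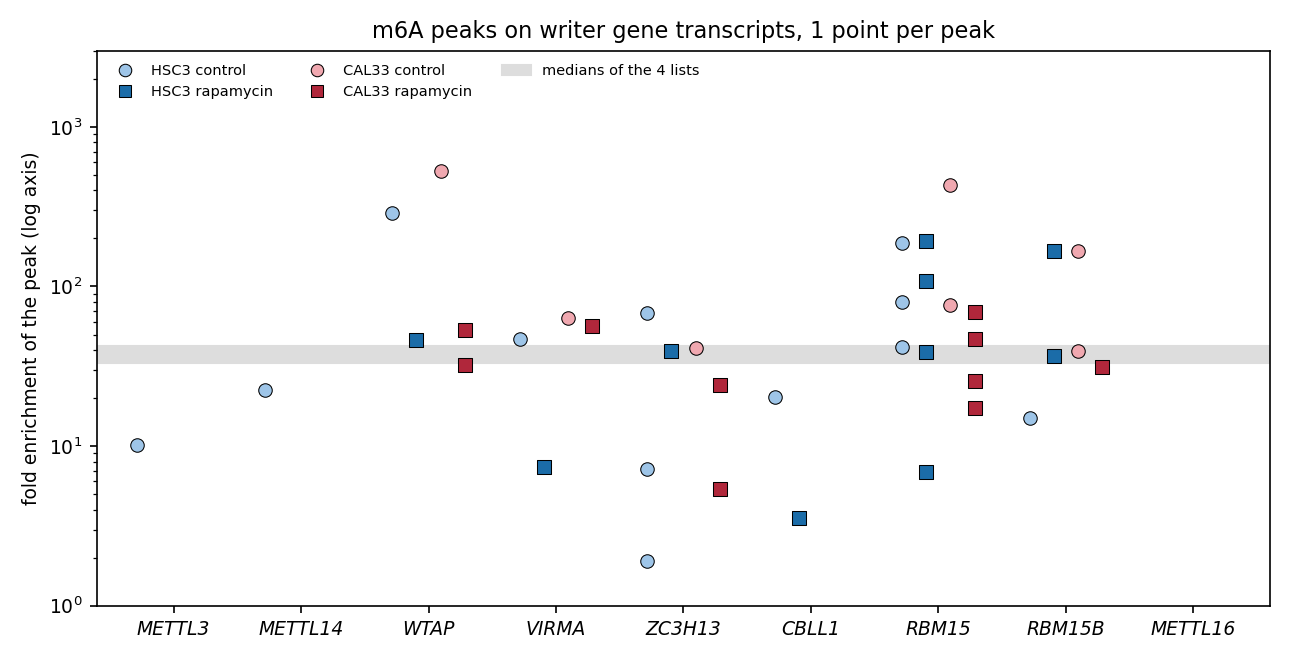
Fold enrichment of each m6A peak on writer gene transcripts (y axis, log scale), 1 point per peak, by cell line and treatment, with the span of the 4 list medians (33.3 to 42.6) in grey. WTAP has its control peaks at 289 and 528 and its rapamycin peaks from 32.2 to 53.6. METTL16 has no point.

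WTAP carried a peak annotated to the 5′ UTR in all 4 lists, and its fold enrichment was lower with rapamycin in both cell lines. In HSC3 the same interval, chr6:159726512-159726751, had a fold enrichment of 289 in control and 46.5 with rapamycin, 6.22 times lower. In CAL33 the control peak at chr6:159726093-159726571 had 528, and the rapamycin peak at chr6:159726512-159726751 had 53.6, 9.85 times lower. The CAL33 peaks shared only 60 bases, 25% of the shorter one. Within their lists the values moved from percentile 93.4 to 59.2 in HSC3 and from 97.4 to 61.1 in CAL33. Of 304 positions with a peak in all 4 lists, 34.5% were lower with rapamycin in both cell lines, and 4 (1.32%, WTAP included) were at least as much lower in both as WTAP. The WTAP position was singled out after its values were seen. RefSeq starts WTAP at base 159726693, so 181 bases of the shorter interval, and all 479 of the CAL33 control peak, lie before that start. A further WTAP peak in the coding sequence (chr6:159755243-159755422, fold enrichment 32.2) was listed in CAL33 with rapamycin only.

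VIRMA carried 1 peak in each list, all in the coding sequence, and the position differed by treatment in the same way in both cell lines. The control peaks lay at chr8:94511193-94511372 in HSC3 (fold enrichment 46.7) and chr8:94511342-94511552 in CAL33 (63.8). The rapamycin peaks lay at chr8:94519036-94519275 in HSC3 (7.42) and chr8:94519066-94519275 in CAL33 (56.3), 7483 bases away and nearer the 5′ end of this minus-strand gene. The 2 rapamycin peaks shared 210 bases, whereas the 2 control peaks shared only 31, 17.2% of the shorter. Of 594 genes with a peak in all 4 lists, 10.6% had a position found in control only and shared by both cell lines, 8.75% had one found with rapamycin only, and 1.85% (11 genes) had both kinds, VIRMA among them. VIRMA too was singled out after its values were seen.

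**Figure D4:**
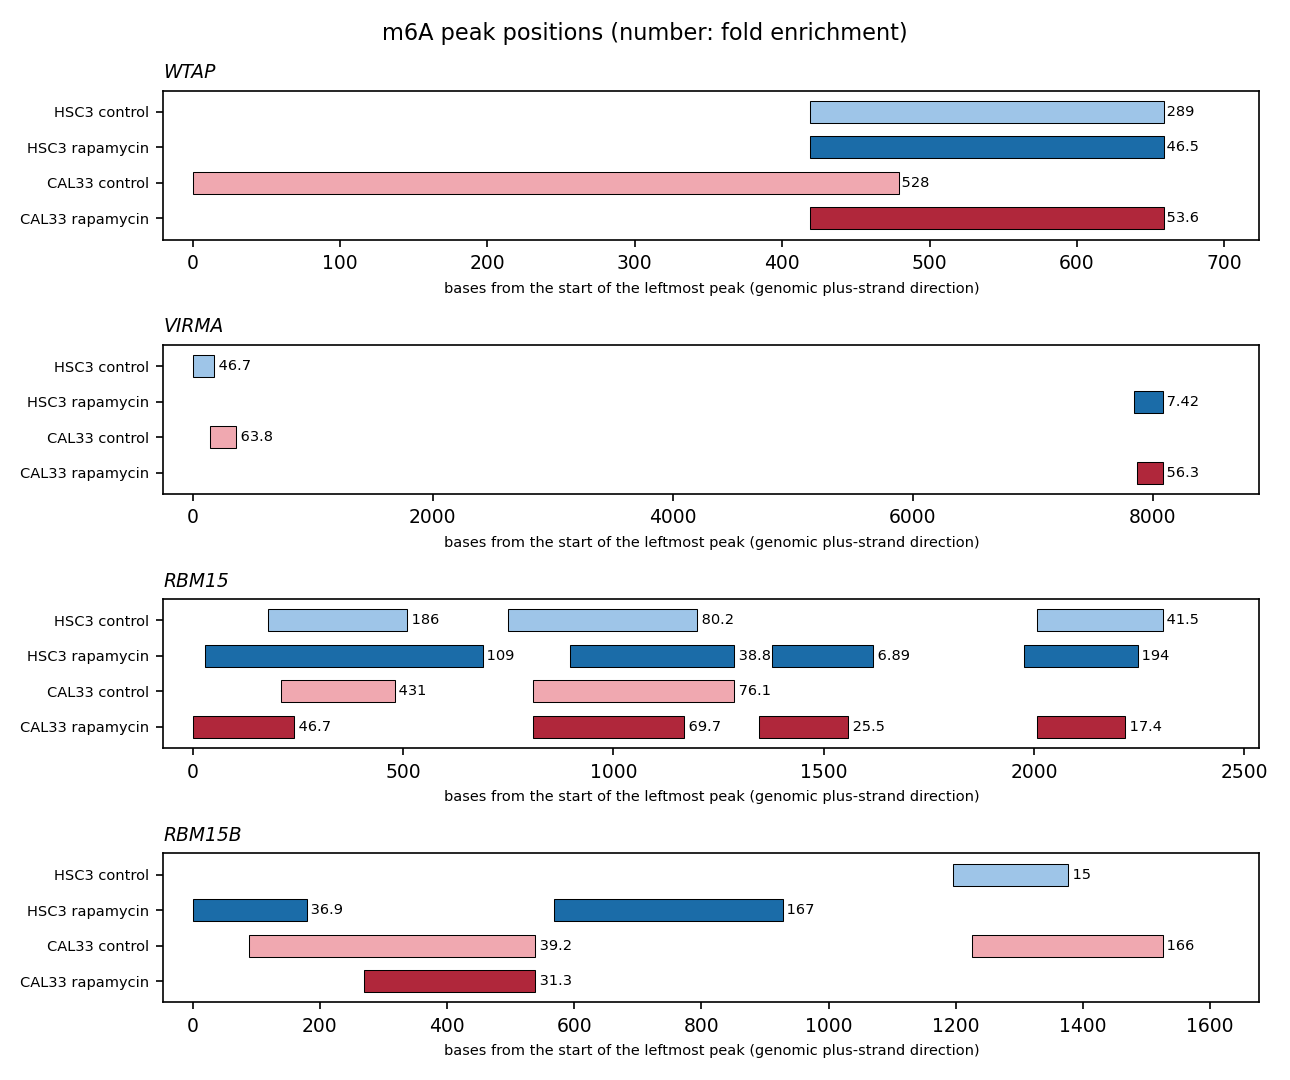
Position of the m6A peaks of WTAP (5′ UTR peaks only), VIRMA, RBM15 and RBM15B in the 4 lists, as bases from the start of the leftmost peak (x axis, plus-strand direction), with each peak's fold enrichment beside it. VIRMA control peaks and rapamycin peaks stand at separate positions in both cell lines, and the RBM15 peaks with fold enrichments of 6.89 and 25.5 appear with rapamycin only.

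RBM15 had the most peaks of the 9, with 13 in all, each in the coding sequence. It carried 3 in HSC3 control, 4 in HSC3 rapamycin, 2 in CAL33 control and 4 in CAL33 rapamycin. Among genes with a peak, 6.09%, 2.08%, 22% and 1.5% had at least as many in these lists. Its first position, from chr1:110340182-110340511 in HSC3 control, had fold enrichments of 186 and 109 in HSC3 (control, rapamycin) and 431 and 46.7 in CAL33, where the 2 peaks shared only 31 bases. Its second, from chr1:110340751-110341200 in HSC3 control, had 80.2 and 38.8 in HSC3 and 76.1 and 69.7 in CAL33. Both positions were in all 4 lists. Another, chr1:110342008-110342307 in HSC3 control, had 41.5 and 194 in HSC3 and was listed in CAL33 with rapamycin only, at 17.4. One more was found with rapamycin only in both lines, at chr1:110341379-110341619 in HSC3 (6.89) and chr1:110341349-110341559 in CAL33 (25.5).

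RBM15B, the paralogue, had 6 peaks, annotated as exon without a finer class. A position found in control only in both lines lay at chr3:51393870-51394050 in HSC3 (fold enrichment 15.0) and chr3:51393900-51394199 in CAL33 (166). In CAL33 a peak at chr3:51392763-51393212 was listed in control at 39.2 and, over a shorter interval, with rapamycin at 31.3. In HSC3 both rapamycin peaks, at 36.9 and 167, had no partner in HSC3 control. The one at 36.9 (chr3:51392674-51392853) shared 91 bases with the CAL33 control peak at 39.2.

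ZC3H13 had 7 peaks and 1 of its positions recurred. The coding-sequence peak from chr13:45967724-45967903 had fold enrichments of 7.21 in HSC3 control, 39.6 in HSC3 rapamycin and 5.36 in CAL33 rapamycin, and was not listed in CAL33 control. The other 2 HSC3 control peaks, at 1.91 and 68.4, were found in that list alone. In CAL33, 3′ UTR peaks at chr13:45956590-45956769 in control (40.9) and chr13:45957009-45957218 with rapamycin (24.1) did not overlap.

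The remaining members had few peaks, all in HSC3. CBLL1 had a coding-sequence peak from chr7:107758792-107759002 with a fold enrichment of 20.3 in control and 3.52 with rapamycin. METTL3 had 1 exon peak (chr14:21503720-21503960, fold enrichment 10.1), in control only. METTL14 likewise had 1, in the coding sequence (chr4:118710130-118710310, 22.4), with the authors' false discovery rate at 0.0617. METTL16 was not listed with a peak.

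Taking the members' peaks together, 6 of 12 HSC3 control peaks (50%) overlapped a rapamycin peak of the same line, against 28.2% of all HSC3 control peaks. In CAL33 it was 4 of 7 (57.1%), against 25.1%. Of the rapamycin peaks, 6 of 10 in HSC3 (60.0%) and 4 of 10 in CAL33 (40.0%) overlapped a control peak, against 28.4% and 29.9% of all. In both lines RBM15 gave more of these overlaps than any other member. The shares over all peaks include genes of any level.

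Promoter sequence was looked at to see what the members share beyond function. RefSeq windows (GRCh38.p14) of 250 bases before to 50 after a listed start were matched for 8 of the 9 genes, with 2 windows for WTAP, and VIRMA was not matched. Both WTAP windows (chr6:159726867-159727166 and chr6:159727256-159727555) lie inside the gene, past its RefSeq start at base 159726693. The bases before that WTAP start were therefore not searched. Their GC content ran from 52.0% to 74.3%, with a median of 58.7% over all 35116 windows. Both strands were searched for the E-box CACGTG, the longer TCACGTGA that contains it, the ETS-family motif CCGGAAGT and the TATA motif TATAAA. The E-box is read by basic helix-loop-helix factors, among them MYC and the mTOR-regulated TFEB, whose element holds the longer form. It was found in RBM15 and RBM15B (7.26% of all windows), and the longer form in RBM15 (0.98%). The ETS motif was found in METTL14, at 2 places, and in ZC3H13 (4.14% of all windows), and TATAAA in METTL3 (11.5%). No motif was shared by more than 2 of the members. The lines below show the E-boxes of the paralogues and the METTL14 motifs, since RBM15 has the most peaks, RBM15B is its paralogue and METTL14 has the steadiest level, with the motif in capitals on the plus strand.
RBM15, chr1:110339184-110339213, 182 bases before the start: aacactttgggTCACGTGAccgcagagtgc
RBM15B, chr3:51391194-51391221, 80 bases before the start: cgccgcagagtCACGTGgcaggacggcg
METTL14, chr4:118685344-118685373, 37 bases before the start, motif in reverse complement: aaggaggcgggACTTCCGGgccaagcgagc
METTL14, chr4:118685377-118685395, from 4 bases before the start: ttccggccgcgCCGGAAGT
A match in these windows is a description of the letters only.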

How the data were processed

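The RNA-seq table holds the authors' deposited read counts per Ensembl gene, raw and not pooled. HTSeq is named for it, and the submitters' processing notes list cutadapt 2.5, HISAT2 2.1.0, featureCounts 1.6.3, HOMER 4.10.4 and hg38 with no role. The strand setting of counting and the peak caller are not given in the sources used here. The 4 peak lists hold the authors' fold enrichment (a ratio of m6A immunoprecipitate to input) and the authors' p-value with log10 p-value and log10 false discovery rate per peak, each called on 1 pair of libraries. With the strand setting unknown, reads over overlapping genes could be split or shared in ways that cannot be checked.

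Counts were filtered (filterByExpr), scaled by TMM and fitted in edgeR 4.0.16 (R 4.3.3) with a quasi-likelihood test, treatment plus library number as a block. Benjamini-Hochberg adjustment ran over all 15826 tested genes at 0.05. DESeq2 1.42.0, upper-quartile scaling, other filters, the fit without the block and leaving out each library were alternatives. The block pairs the RNA-seq libraries by their own numbers, and the cell line labels of these libraries go against this pairing. As a check of pairing, the differences between numbers in control and in rapamycin correlated at r = 0.901 across genes. CPM values are TMM-scaled, and gene lengths were not available, so CPM is not a level per length and was set between genes only as a minimum for the share of genes with a peak. Symbols were matched for 98.7% of identifiers.

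Peaks were assigned by the Ensembl identifier in each list and matched between lists by at least 1 shared base on the same strand. Peak starts were converted to 1-based positions. The percentile of a peak is the share of its list with a lower fold enrichment. Scripts were tested on simulated data. All 9 members and the eraser, reader, methyltransferase and S-adenosylmethionine lists and markers were chosen with earlier results of these data known. All members are named, and context genes are named where they passed the threshold in the fit with the block.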

Additional observations from a re-analysis of the deposited data

Results flagged for a closer look

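METTL14 and RBM15 were the members whose mRNA differed in opposite directions in the numbered pairs of libraries, as did 31.2% of all tested genes. METTL14 differed between rapamycin and control by 0.072 on the log2 scale in the libraries numbered 1 and by −0.11 in those numbered 2. RBM15 differed by −0.44 in the libraries numbered 1 and by 0.028 in those numbered 2. With 1 library per treatment and number, these differences were not tested.

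The second RBM15 peak position moved in opposite directions on the percentile scale. With rapamycin its fold enrichment changed by −15.3 percentile points in HSC3 and by 5.17 points in CAL33, although the fold enrichment itself was the lower one with rapamycin in both lines. This difference was not tested either.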

How the results depend on the processing

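The count of members past the threshold was 0 of 9 in every fit run, with and without the replicate block. Over all genes, 1290 passed with rapamycin under the block, 818 with DESeq2 and the block kept, and 0 with no replicate block. Leaving out each library in turn without the block also gave 0 in all 4 cases, with 1 residual degree of freedom, where a lone library is assumed to vary like the other group. The number term gave 5899 genes, and 3927 with at least 10 counts in every library. The METTL14 fold change turned positive with upper-quartile normalization (0.054 on the log2 scale, where the median over all genes moved from 0.05 to 0.13) and with at least 10 counts in every library (0.0055). Without each library in turn, with the block kept and no test possible, METTL14 ranged from −0.11 to 0.072, its value without control 2 or rapamycin 2. RBM15 ranged from −0.44 to 0.055 and was above 0 without control 1 (0.055) or rapamycin 1 (0.028). ALKBH5 was −0.62 without control 1, −0.65 without rapamycin 1 and −1.23 without control 2 or rapamycin 2, against −0.94. The other 7 members stayed below 0 under each alternative, but 1 library moved several of them. METTL3 was −0.0025 without control 1, −0.029 without rapamycin 1 and −0.41 without control 2 or rapamycin 2, and CBLL1 was −0.08 without control 1, −0.11 without rapamycin 1 and −0.48 without control 2 or rapamycin 2. Without control 2 or rapamycin 2, WTAP was −0.19, ZC3H13 −0.25 and METTL16 −0.31, against −0.67, −0.74 and −0.68 without rapamycin 1. When 50% of the shorter peak had to be shared, the CAL33 peak pairs shared by control and rapamycin went from 4 to 2 and the positions in all 4 lists from 3 to 1, losing WTAP and the first RBM15 position, and the VIRMA control position was no longer shared by both lines.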

Other observations

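MAT2A, the S-adenosylmethionine synthetase whose transcript METTL16 methylates, was looked at after its values were seen. It stood at 199.9 and 273.4 CPM in control libraries 1 and 2 and at 445.1 and 232.8 CPM in rapamycin libraries 1 and 2. Rapamycin 1 was the highest of the 4, and the pairs differed in opposite directions, by 1.16 and −0.23 on the log2 scale. The fitted log2 fold change was 0.46 (SE 0.30, adjusted p = 0.394, edgeR with the block; without it 0.52, SE 0.45, adjusted p = 0.9997), and the difference between the pairs was not tested.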
